A study of Mus musculus with 48 samples.

Results

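The liver X receptors and a small set of their sterol and phospholipid targets were followed across genotype, diet and nutritional state in mouse liver. The 8 genes were taken by name: the receptors *Nr1h3* and *Nr1h2*, the transporters *Abcg5*, *Abcg8* and *Abca1*, and *Pltp*, *Lpcat3* and *Mylip*. Every probe of the array that was not a control and carried 1 of these gene names was used, which gave 13 of the 56605 probes and 8 of the 37074 gene names. Of these, 12 probes were bright enough to be tested, among 30793 tested probes in all, and all 8 genes were among the 20486 tested genes.

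The study asked how PI3Kα of hepatocytes, a lipid kinase through which insulin signals in part, shapes liver gene expression with and without diet-induced steatosis. RNA of whole liver was hybridised on 48 one-colour arrays, 1 per male mouse, in 8 groups of 6. p110α hep-/- mice (labelled LKO) carry albumin-Cre and 2 floxed alleles of p110α, the catalytic subunit of PI3Kα, so that exons 18 and 19 are deleted in cells in which the albumin promoter is active. p110α hep+/+ mice (labelled LWT) are their floxed littermates without Cre. From 12 weeks of age, mice of each genotype received a control diet (CTRL) or a high fat diet (HFD, 60% of calories from fat) for 12 weeks, and were then killed at ZT16, counted from lights on, either fed ad libitum (FED) or after a fast of 24 h that began at ZT16 (FASTED). Both genotypes carry the floxed alleles, and a group of Cre-positive mice without floxed alleles was not analysed here.

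LXRα (*Nr1h3*) and LXRβ (*Nr1h2*) are nuclear receptors that bind oxysterols, form heterodimers with RXR and activate transcription when sterols accumulate in the cell. In the liver, LXRα is the more abundant receptor of the hepatocyte, and its known targets divide into a sterol disposal branch and a lipogenic branch that runs through *Srebf1*. ABCG5 and ABCG8 form 1 heterodimeric pump that secretes cholesterol and plant sterols into bile, and ABCA1 loads cholesterol and phospholipid onto apolipoprotein A-I to start an HDL particle. PLTP moves phospholipid between lipoproteins, LPCAT3 inserts polyunsaturated acyl chains into membrane phosphatidylcholine, and MYLIP (IDOL) is a ubiquitin ligase that sends lipoprotein receptors to degradation.

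*Abcg5* and *Abcg8* lie head to head on mouse chromosome 17 and are read in opposite directions. In the RefSeq promoter table (GRCm38.p6) the start of *Abcg5* on the minus strand is at 84683011 and the start of *Abcg8* on the plus strand nearest to it is at 84683121, which leaves 109 bases between them. This intergenic segment, chr17:84683012-84683120, is shown on the plus strand because both transporter genes are read outward from it. Capitals mark the letters TTATCT, which is AGATAA on the other strand and was chosen after the sequence had been seen.
Abcg5-Abcg8 segment: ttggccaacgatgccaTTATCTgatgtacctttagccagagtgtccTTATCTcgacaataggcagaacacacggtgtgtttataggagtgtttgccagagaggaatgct
The segment holds 2 copies, 24 bases apart. Of 32851 promoter stretches of the same length, 3.98% hold at least 1 copy on either strand and 0.186% hold as many as this segment.

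The element that LXR and RXR are known to bind is a direct repeat of AGGTCA with a spacer of 4 bases, known as DR4. It was searched on both strands from 250 bases before to 50 bases after the start sites of the 8 genes, 10 promoter windows in all since *Nr1h3* and *Abcg8* have more than 1 start. At most 3 mismatches over the 12 fixed letters were found in 1 of these windows, that of *Abca1*, against 21.9% of all 32851 windows of this length; at most 2 mismatches were found in none, against 3.02% of all. The *Abca1* match lies 67 to 52 bases before the start site and is printed in capitals within its surroundings, chr4:53159927-53159982 (GRCm38.p6, minus strand, as *Abca1* is read).
Abca1 promoter: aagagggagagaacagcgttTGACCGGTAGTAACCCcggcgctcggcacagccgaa
In the other windows, *Abcg5* and *Abcg8* included, the best match had 4 or 5 mismatches, so these letters are not within the stretches searched.

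Between 50.1% and 57.4% of probes per array were well above background, the flag of the scanner software that a spot exceeds its local background, and no member probe had an outlier or saturated spot. All 12 tested member probes were well above background on 48 of 48 arrays, and the remaining *Nr1h2* probe on 0 of 48. The arrays had been washed in 2 batches, 3 arrays of each group in each, and each of 6 slides held 1 array of every group. The probe for *Pik3ca*, the gene that encodes p110α, did not read lower in p110α hep-/- mice and was called higher in all settings but fasted mice on CTRL, with log2 fold changes of 0.39 in fed and 0.076 in fasted mice on CTRL and of 0.58 in fed and 0.25 in fasted mice on HFD. Whether the probe lies in the deleted exons was not determined; if it lies outside them it checks nothing, and genotype is taken from the labels throughout. Of 6 defining hepatocyte markers (*Alb*, *Ttr*, *Cps1*, *Serpina1c*, *Fabp1*, *Apob*), all were well above background on every array, but several sit at the top of the signal scale, where a change can barely register; group means of *Alb* lay between 18.88 and 18.91. *Cps1*, the first enzyme of the urea cycle, was called higher in p110α hep-/- mice in all 4 settings, with log2 fold changes from 0.53 to 1.35, and 1 or 2 of *Ttr*, *Fabp1* and *Apob* were called lower in each, from -0.25 to -0.15.

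All levels below are quantile-normalised log2 signals of a gene's brightest probe, which compare a probe between mice but not 1 gene with another. Differences are log2 fold changes from a limma fit over the 48 arrays that weights each array, given with their SE, and a call means a Benjamini-Hochberg adjusted p of at most 0.05 over all tested probes. The values within each washing batch come from the same weighted fit run on that batch alone, with 3 arrays per group, and stand beside the value over both batches. Across the 8 genes, 17 of 32 genotype comparisons, 8 of 32 diet comparisons and 18 of 32 fasting comparisons were called, and 7 of 48 interactions. Over all tested genes, 21.7% to 36.9% were called per genotype comparison, 10.8% to 24.0% per diet comparison, 28.6% to 35.5% per fasting comparison and 2.36% to 8.0% per interaction. In whole liver, a lower signal from fewer cells of a type and from less RNA per cell cannot be told apart.

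**Figure D1:**
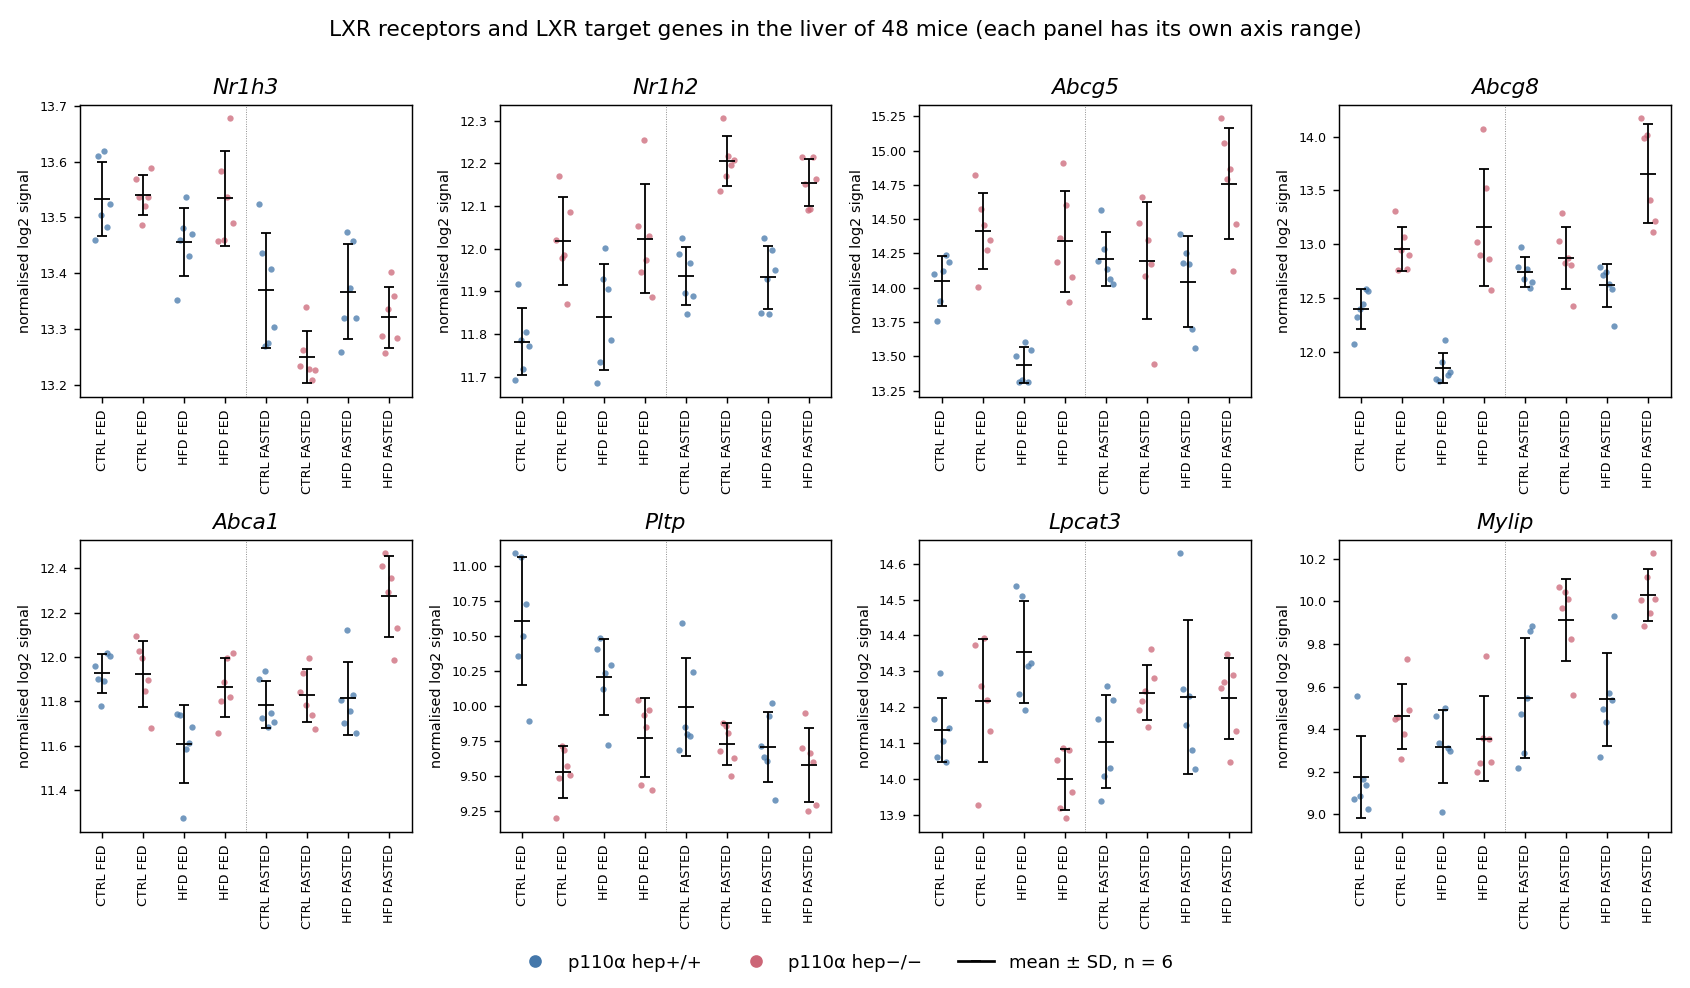
Quantile-normalised log2 signal of the 8 genes in each of the 48 mice, by genotype, diet and nutritional state. Points are mice, and the bar with whiskers is the group mean ± SD (n = 6 per group). Abcg8 spans 11.85 to 13.65 between its lowest and highest group means, whereas Nr1h3 spans 13.25 to 13.54.

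Expression of *Nr1h3*, which encodes LXRα, fell on fasting in both p110α hep-/- settings by its brighter probe. In p110α hep+/+ mice on CTRL a fall of that probe was called or not depending on the scaling. It was not called between genotypes in any setting. The fed groups had mean signals between 13.46 and 13.54 and the fasted groups between 13.25 and 13.37, and SDs ranged from 0.036 to 0.10 (n = 6). In p110α hep-/- mice on CTRL it read 13.49 to 13.59 with a median of 13.54 when fed and 13.21 to 13.34 with a median of 13.23 when fasted, with no overlap. The log2 fold change on fasting was -0.28 ± 0.044 (SE, adjusted p = 3.35e-06) there, with -0.28 in batch 1 and -0.26 in batch 2. On HFD, p110α hep-/- mice again showed a fall on fasting without overlap, at -0.23 ± 0.049 (SE, adjusted p = 0.000302), with -0.25 in batch 1 and -0.21 in batch 2. In p110α hep+/+ mice the fasting change was -0.16 ± 0.044 (SE, adjusted p = 0.00364) on CTRL (-0.21 in batch 1 and -0.12 in batch 2) and -0.093 ± 0.042 (SE, adjusted p = 0.0961) on HFD, and the latter was not called. The call in p110α hep+/+ mice on CTRL was lost with median scaling in place of quantile normalisation, at -0.078 (adjusted p = 0.263), and with the 75th percentile as the scale, at -0.10 (adjusted p = 0.0692). In the limma fit 0 of its 4 genotype comparisons were called, with 1 at an unadjusted p under 0.05 and log2 fold changes from -0.10 to 0.085. Of its 4 diet comparisons 0 were called and 0 had an unadjusted p under 0.05.

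A second *Nr1h3* probe on the same transcript correlated with the first at r = 0.53 over the 48 mice and had the same sign in 9 of 12 comparisons, of which 1 was called. The brighter probe lies at chr2:91024250-91024309 (mm9, minus strand) and the other at chr2:91024435-91024494. For fasting of p110α hep-/- mice on CTRL and on HFD the other probe gave -0.14 (adjusted p = 0.341) and -0.28 (adjusted p = 0.0706). In p110α hep+/+ mice its group means were 13.15 fed and 12.83 fasted on CTRL, and 13.02 and 13.03 on HFD. With the mean over both probes, fasting in p110α hep+/+ mice on CTRL gave -0.26 (limma, adjusted p = 0.00123), which was called. The genotype in which the fall is clearer thus depends on the probe. The other probe was not on the same scale as the brighter one. It was more variable within groups, with SDs up to 0.24.

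*Nr1h2*, which encodes LXRβ, was higher in p110α hep-/- than in p110α hep+/+ mice in all 4 settings. The p110α hep+/+ group means lay between 11.78 and 11.94 and those of p110α hep-/- mice between 12.02 and 12.21. When fasted on CTRL, p110α hep+/+ mice read 11.85 to 12.03 with a median of 11.93 and p110α hep-/- mice 12.13 to 12.31 with a median of 12.20, without overlap. The genotype log2 fold changes were 0.23 ± 0.052 (SE, adjusted p = 0.000962) on CTRL fed, 0.27 ± 0.050 (SE, adjusted p = 6.31e-05) on CTRL fasted, 0.14 ± 0.052 (SE, adjusted p = 0.0309) on HFD fed and 0.22 ± 0.054 (SE, adjusted p = 0.00117) on HFD fasted. These differences are small, at most 1.21-fold higher, and the genotypes overlapped in both fed settings. Within batches the 4 differences ranged from 0.088 to 0.29 and kept their sign. The HFD fed call was lost when any 1 of these arrays was left out: p110α hep-/- HFD FED replicate 1, 3 or 5 or p110α hep+/+ HFD FED replicate 1, 2 or 6 (adjusted p from 0.0608 to 0.121, log2 fold change from 0.11 to 0.14).

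Fasting raised *Nr1h2* in 3 of 4 settings. The log2 fold change was 0.16 ± 0.050 (SE, adjusted p = 0.0146) in p110α hep+/+ mice on CTRL, with 0.11 in batch 1 and 0.19 in batch 2. In p110α hep-/- mice it was 0.20 ± 0.051 (SE, adjusted p = 0.00251) on CTRL, with 0.19 in batch 1 and 0.20 in batch 2, and 0.16 ± 0.056 (SE, adjusted p = 0.0315) on HFD, with 0.13 in batch 1 and 0.19 in batch 2. In p110α hep+/+ mice on HFD it was 0.082 ± 0.049 (SE, adjusted p = 0.227), which was not called. In the 3 settings where both receptor genes were called on fasting, *Nr1h3* fell and *Nr1h2* rose. The first of these *Nr1h2* calls was lost without p110α hep+/+ CTRL FED replicate 1 (adjusted p = 0.0510, log2 fold change 0.14). The last was lost when any 1 of these arrays was left out: p110α hep-/- HFD FASTED replicate 1 or 5 or p110α hep-/- HFD FED replicate 2 or 6 (adjusted p from 0.0568 to 0.0981, log2 fold change from 0.14 to 0.15). A second tested probe of *Nr1h2* (chr7:51807934-51808069, mm9, minus strand), on another transcript than the brighter probe (chr7:51805013-51805072), was dim, with a median signal of 101 against 4116, and its correlation with the brighter probe was r = 0.31. It had the same sign in 6 of 12 comparisons and gave genotype log2 fold changes of -0.0030 (adjusted p = 0.988), 0.082 (adjusted p = 0.550), 0.16 (adjusted p = 0.174) and 0.27 (adjusted p = 0.0244) in the same order of settings. With the mean over both probes, the *Nr1h2* calls for genotype in fed mice on CTRL (0.11, adjusted p = 0.158), for fasting in p110α hep+/+ mice on CTRL (0.096, adjusted p = 0.195) and for fasting in p110α hep-/- mice on HFD (0.074, adjusted p = 0.423) were lost.

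The *Abcg5* and *Abcg8* pair, the biliary sterol pump, spanned the widest ranges of the 8 genes, with group means 1.81 apart for *Abcg8* and 1.32 apart for *Abcg5*. In p110α hep+/+ mice on CTRL, *Abcg5* (chr17:85057604-85057663, mm9, minus strand) read 13.76 to 14.24 with a median of 14.11 when fed and 14.02 to 14.57 with a median of 14.17 when fasted. On HFD these mice read 13.31 to 13.61 with a median of 13.42 when fed and 13.56 to 14.39 with a median of 14.18 when fasted. The fed HFD group lay below every fed CTRL mouse and was the lowest of the 8 groups. p110α hep-/- mice on CTRL read 14.01 to 14.82 with a median of 14.40 fed and 13.44 to 14.66 with a median of 14.26 fasted. On HFD they read 13.90 to 14.91 with a median of 14.27 fed and 14.12 to 15.24 with a median of 14.83 fasted.

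*Abcg8* (chr17:85099609-85099668, mm9, plus strand) followed the same order at its ends. In p110α hep+/+ mice it read 12.07 to 12.58 with a median of 12.42 on CTRL fed and 12.59 to 12.97 with a median of 12.73 on CTRL fasted. On HFD it read 11.73 to 12.11 with a median of 11.80 fed and 12.24 to 12.79 with a median of 12.67 fasted. Every fed p110α hep+/+ mouse on HFD was below every fasted one. p110α hep-/- mice on CTRL read 12.76 to 13.30 with a median of 12.92 fed and 12.42 to 13.29 with a median of 12.85 fasted. On HFD they read 12.57 to 14.07 with a median of 12.96 fed and 13.11 to 14.17 with a median of 13.70 fasted. In 3 of the 4 settings, all but the fasted mice on CTRL, no p110α hep+/+ mouse reached the lowest p110α hep-/- mouse.

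Both transporter genes were higher in p110α hep-/- than in p110α hep+/+ mice on HFD. In fed mice on HFD, *Abcg8* was 2.24-fold higher in p110α hep-/- mice, at a log2 fold change of 1.16 ± 0.15 (SE, adjusted p = 3.16e-08), and *Abcg5* 1.75-fold higher, at 0.81 ± 0.15 (SE, adjusted p = 5.44e-05); neither overlapped. Within batches the *Abcg8* difference was 1.20 in batch 1 and 1.08 in batch 2, and that of *Abcg5* was 0.68 in batch 1 and 0.91 in batch 2. When fasted on HFD, the genotypes differed in *Abcg8* by 1.05 ± 0.15 (SE, adjusted p = 5.24e-07) without overlap, with 0.89 in batch 1 and 1.25 in batch 2. *Abcg5* differed by 0.70 ± 0.16 (SE, adjusted p = 0.000486) with overlap, and 0.61 in batch 1 and 0.77 in batch 2. On CTRL the fitted differences were smaller, but the difference between diets was called only for *Abcg8* in fasted mice. *Abcg8* was 1.48-fold higher in fed p110α hep-/- mice, at 0.56 ± 0.15 (SE, adjusted p = 0.00412), without overlap and with 0.51 in batch 1 and 0.57 in batch 2, while *Abcg5* gave 0.38 ± 0.15 (SE, adjusted p = 0.0685) and was not called. Neither was called in fasted mice on CTRL, at 0.18 ± 0.14 (SE, adjusted p = 0.384) for *Abcg8* and 0.053 ± 0.15 (SE, adjusted p = 0.837) for *Abcg5*.

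**Figure D2:**
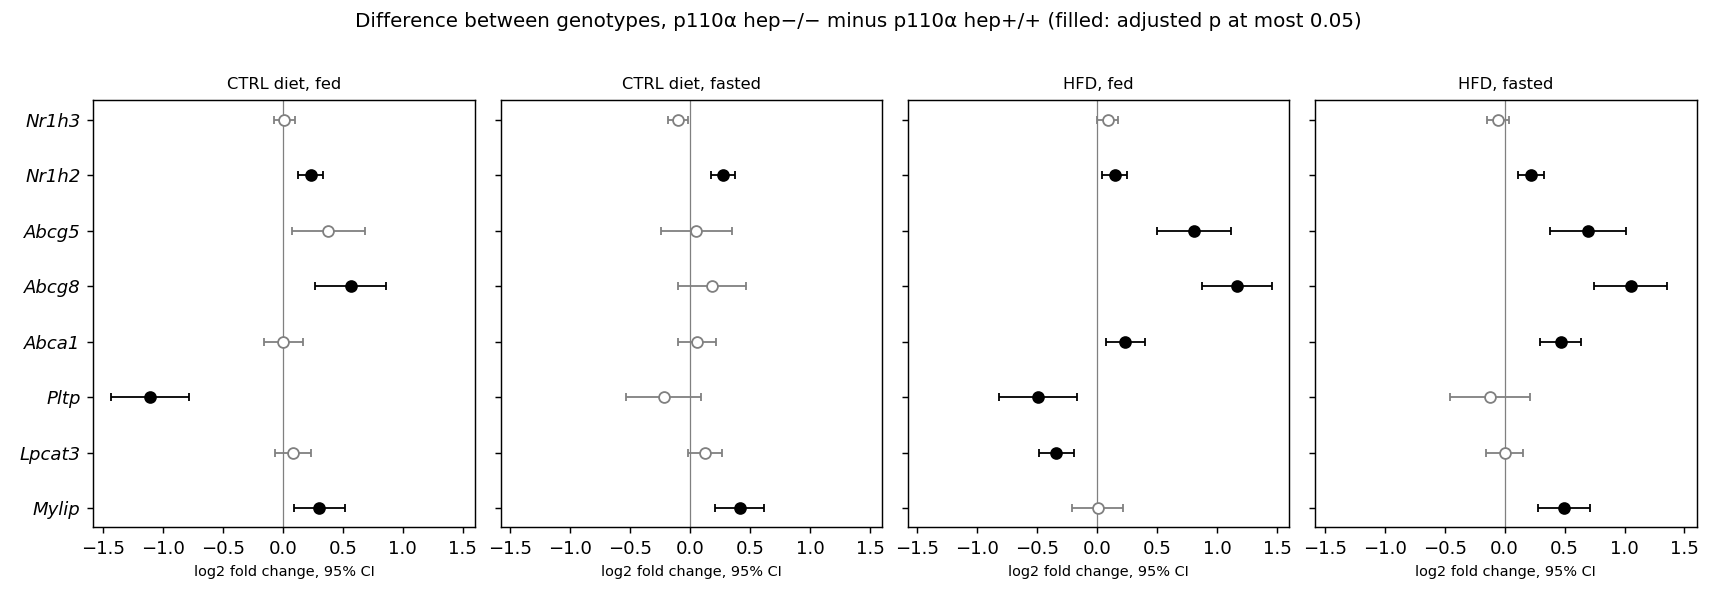
Log2 fold change between genotypes (p110α hep-/- minus p110α hep+/+) of the 8 genes in each combination of diet and nutritional state, as points with 95% confidence intervals from the limma fit; filled points have an adjusted p of at most 0.05. On HFD, Abcg8 lies at 1.16 fed and 1.05 fasted, and Pltp on CTRL fed lies at -1.11.

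HFD lowered both transporter genes in fed p110α hep+/+ mice and raised both in fasted p110α hep-/- mice. In fed p110α hep+/+ mice, HFD lowered *Abcg5*, with a log2 fold change of -0.60 ± 0.14 (SE, adjusted p = 0.00185), without overlap and with -0.62 in batch 1 and -0.64 in batch 2. *Abcg8* fell there too, at -0.53 ± 0.14 (SE, adjusted p = 0.00426), with overlap and with -0.59 in batch 1 and -0.51 in batch 2. In fasted p110α hep-/- mice, HFD raised *Abcg8* by 0.78 ± 0.15 (SE, adjusted p = 0.000372), with 0.51 in batch 1 and 1.07 in batch 2, and *Abcg5* by 0.53 ± 0.16 (SE, adjusted p = 0.0229), with 0.34 in batch 1 and 0.66 in batch 2. The groups overlapped for both genes, and the *Abcg5* call was lost when any 1 of these arrays was left out: p110α hep-/- CTRL FASTED replicate 3 or 6 or p110α hep-/- HFD FASTED replicate 1, 2 or 3 (adjusted p from 0.0523 to 0.115, log2 fold change from 0.41 to 0.51). In fed p110α hep-/- mice and in fasted p110α hep+/+ mice the diet changes were not called and lay between -0.18 and 0.067.

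On HFD, fasting raised both genes in both genotypes. In p110α hep+/+ mice the log2 fold change was 0.78 ± 0.14 (SE, adjusted p = 2.25e-05) for *Abcg8*, without overlap and with 0.74 in batch 1 and 0.83 in batch 2, and 0.63 ± 0.14 (SE, adjusted p = 0.000644) for *Abcg5*, with 0.63 in batch 1 and 0.71 in batch 2. In p110α hep-/- mice it was 0.66 ± 0.16 (SE, adjusted p = 0.00133) for *Abcg8*, with 0.43 in batch 1 and 1.00 in batch 2, and 0.52 ± 0.16 (SE, adjusted p = 0.0149) for *Abcg5*, with 0.55 in batch 1 and 0.58 in batch 2. The last call was lost when any 1 of these arrays was left out: p110α hep-/- HFD FASTED replicate 1 or 2 or p110α hep-/- HFD FED replicate 5 (adjusted p from 0.0537 to 0.0753, log2 fold change from 0.40 to 0.44). On CTRL, fasting gave no call for either gene, with *Abcg8* at 0.33 ± 0.14 (SE, adjusted p = 0.0701) in p110α hep+/+ mice and -0.052 ± 0.14 (SE, adjusted p = 0.821) in p110α hep-/- mice.

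Tests of the differences between these responses were called in 3 cases for the pair. The genotype difference of *Abcg8* in fasted mice was larger on HFD than on CTRL by 0.87 ± 0.21 (SE, adjusted p = 0.00974), with 0.62 in batch 1 and 1.1 in batch 2; for *Abcg5* the same interaction was 0.64 ± 0.21 (SE, adjusted p = 0.0684) and was not called. In p110α hep-/- mice, the fasting response was larger on HFD than on CTRL by 0.71 ± 0.21 (SE, adjusted p = 0.0313) for *Abcg8*, with 0.41 in batch 1 and 1.07 in batch 2, and by 0.71 ± 0.22 (SE, adjusted p = 0.0423) for *Abcg5*, with 0.74 in batch 1 and 0.65 in batch 2. The *Abcg8* call was lost when any 1 of these arrays was left out: p110α hep-/- CTRL FASTED replicate 6, p110α hep-/- CTRL FED replicate 1, p110α hep-/- HFD FASTED replicate 1, 2 or 3 or p110α hep-/- HFD FED replicate 2, 5 or 6 (adjusted p from 0.0532 to 0.0994, log2 fold change from 0.58 to 0.69). That of *Abcg5* was lost when any 1 of these arrays was left out: p110α hep-/- CTRL FASTED replicate 3, 5 or 6, p110α hep-/- CTRL FED replicate 1 or 3, p110α hep-/- HFD FASTED replicate 1, 2 or 3 or p110α hep-/- HFD FED replicate 1, 2, 5 or 6 (adjusted p from 0.0573 to 0.113, log2 fold change from 0.59 to 0.73). In fed mice, the genotype by diet interaction was 0.60 ± 0.21 (SE, adjusted p = 0.102) for *Abcg8* and 0.43 ± 0.21 (SE, adjusted p = 0.295) for *Abcg5*, neither called, with 95% confidence intervals of 0.18 to 1.01 and -0.0057 to 0.86.

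The transcripts of the pump moved together from mouse to mouse. *Abcg5* and *Abcg8* correlated at Pearson's r = 0.91 and Spearman's rho = 0.88 over the 48 mice, with r = 0.97 over the 8 group means and 0.82 after each group's mean had been removed. Among 20458 other tested genes, each was the one whose signal was most like that of the other. These coefficients are descriptions, since the 48 arrays share groups, batches and normalisation.

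**Figure D3:**
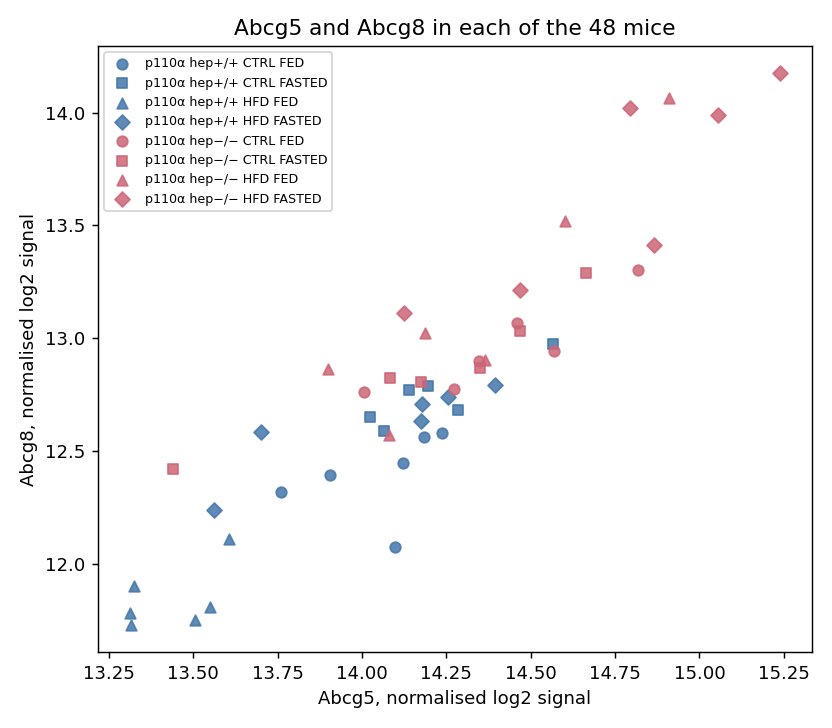
Quantile-normalised log2 signal of Abcg8 against that of Abcg5 in each of the 48 mice, with colour for genotype and marker for diet and nutritional state. The fed p110α hep+/+ mice on HFD sit at the lower left, with Abcg5 up to 13.61 and Abcg8 up to 12.11, and r over all mice is 0.91.

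*Abca1*, the exporter that starts HDL, was higher in p110α hep-/- mice on HFD, with smaller fitted differences than *Abcg5* and *Abcg8*. Fed p110α hep+/+ mice read 11.78 to 12.02 with a median of 11.93 on CTRL and 11.27 to 11.74 with a median of 11.65 on HFD, without overlap. Fasted p110α hep+/+ mice read 11.69 to 11.94 with a median of 11.74 on CTRL and 11.66 to 12.12 with a median of 11.78 on HFD. Of these diet comparisons in p110α hep+/+ mice the fed one was called, with HFD lower. Fed p110α hep-/- mice read 11.68 to 12.09 with a median of 11.95 on CTRL and 11.66 to 12.02 with a median of 11.85 on HFD. Fasted p110α hep-/- mice read 11.68 to 12.00 with a median of 11.81 on CTRL and 11.99 to 12.47 with a median of 12.33 on HFD, the highest of the 8 groups.

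The genotype difference of *Abca1* was 0.47 ± 0.084 (SE, adjusted p = 2.49e-05) in fasted mice on HFD, or 1.38-fold higher in p110α hep-/- mice, with 0.57 in batch 1 and 0.40 in batch 2. In fed mice on HFD it was 0.23 ± 0.081 (SE, adjusted p = 0.0242), with 0.16 in batch 1 and 0.39 in batch 2, and this call was lost when any 1 of these arrays was left out: p110α hep-/- HFD FED replicate 4 or 6 or p110α hep+/+ HFD FED replicate 3 or 4 (adjusted p from 0.0544 to 0.0732, log2 fold change from 0.18 to 0.22). On CTRL it was 0.0042 ± 0.081 (SE, adjusted p = 0.981) fed and 0.058 ± 0.078 (SE, adjusted p = 0.647) fasted, neither called. HFD lowered *Abca1* in fed p110α hep+/+ mice, at -0.30 ± 0.077 (SE, adjusted p = 0.00341), with -0.27 in batch 1 and -0.36 in batch 2. It raised *Abca1* in fasted p110α hep-/- mice, at 0.44 ± 0.084 (SE, adjusted p = 0.000305), with 0.45 in batch 1 and 0.43 in batch 2. Fasting raised it on HFD in both genotypes. In p110α hep-/- mice the change was 0.44 ± 0.088 (SE, adjusted p = 0.000171), with 0.45 in batch 1 and 0.38 in batch 2, and in p110α hep+/+ mice 0.21 ± 0.076 (SE, adjusted p = 0.0382), with 0.047 in batch 1 and 0.37 in batch 2. The p110α hep+/+ call was lost when any 1 of these arrays was left out: p110α hep+/+ HFD FASTED replicate 3 or p110α hep+/+ HFD FED replicate 3, 4 or 5 (adjusted p from 0.0582 to 0.218, log2 fold change from 0.13 to 0.20).

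For *Abca1* too, the fasting response of p110α hep-/- mice was larger on HFD than on CTRL, by 0.52 ± 0.12 (SE, adjusted p = 0.00379), with 0.56 in batch 1 and 0.42 in batch 2. This call held without any 1 array. The genotype difference in fasted mice was larger on HFD by 0.41 ± 0.11 (SE, adjusted p = 0.0300), with 0.56 in batch 1 and 0.26 in batch 2, and was lost when any 1 of these arrays was left out: p110α hep-/- HFD FASTED replicate 1, 2 or 3, p110α hep+/+ CTRL FASTED replicate 3 or p110α hep+/+ HFD FASTED replicate 2 or 4 (adjusted p from 0.0513 to 0.0885, log2 fold change from 0.35 to 0.40). Both tested probes lie on chromosome 4 on the minus strand (mm9), the brighter at chr4:53043944-53044003 and a dim one, with a median signal of 118 against 3690, at chr4:53048405-53049145. They correlated at r = 0.64 over the 48 mice and had the same sign in 10 of 12 comparisons. With the mean over both probes, the *Abca1* interaction of genotype with diet in fasted mice (0.29, adjusted p = 0.0801) and the fasting call in p110α hep+/+ mice on HFD (0.17, adjusted p = 0.0527) were lost. The dim probe gave, in fasted mice on HFD, a genotype log2 fold change of 0.24 (adjusted p = 0.0267), and for HFD in fed p110α hep+/+ mice -0.44 (adjusted p = 7.27e-05). *Abca1* correlated with *Abcg5* at r = 0.73 over the 48 mice, 0.87 over group means and 0.50 within groups.

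*Pltp*, the phospholipid transfer protein, was lower in fed p110α hep-/- than in fed p110α hep+/+ mice on both diets, where *Abcg8* was higher. Its single probe lies at chr2:164665022-164665081 (mm9, minus strand). On CTRL, fed p110α hep+/+ mice read 9.89 to 11.09 with a median of 10.61 and fed p110α hep-/- mice 9.20 to 9.71 with a median of 9.54, without overlap. This was the largest decrease among the 8 genes between genotypes, 2.16-fold lower in p110α hep-/- mice, with a log2 fold change of -1.11 ± 0.16 (SE, adjusted p = 2.06e-06) and -0.99 in batch 1 and -1.17 in batch 2. On HFD, fed p110α hep+/+ mice read 9.72 to 10.48 with a median of 10.26 and fed p110α hep-/- mice 9.40 to 10.04 with a median of 9.89, a difference of -0.49 ± 0.16 (SE, adjusted p = 0.0168) with overlap and with -0.41 in batch 1 and -0.55 in batch 2. The HFD call was lost when any 1 of these arrays was left out: p110α hep-/- HFD FED replicate 2 or 6 (adjusted p from 0.0528 to 0.0857, log2 fold change from -0.43 to -0.40).

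When fasted, *Pltp* read 9.69 to 10.59 with a median of 9.82 in p110α hep+/+ mice on CTRL and 9.50 to 9.88 with a median of 9.74 in p110α hep-/- mice on CTRL. On HFD the fasted values were 9.33 to 10.02 with a median of 9.68 in p110α hep+/+ mice and 9.25 to 9.95 with a median of 9.63 in p110α hep-/- mice. The fasted ranges overlapped between genotypes on both diets. The genotype differences when fasted were -0.22 ± 0.16 (SE, adjusted p = 0.334) on CTRL and -0.12 ± 0.17 (SE, adjusted p = 0.608) on HFD, neither called. Fasting lowered *Pltp* in p110α hep+/+ mice, at -0.69 ± 0.16 (SE, adjusted p = 0.000646) on CTRL, with -0.79 in batch 1 and -0.64 in batch 2. On HFD the change was -0.50 ± 0.15 (SE, adjusted p = 0.0104), with -0.77 in batch 1 and -0.20 in batch 2. For p110α hep-/- mice the changes were 0.20 ± 0.16 (SE, adjusted p = 0.366) and -0.13 ± 0.18 (SE, adjusted p = 0.644), not called. On CTRL the fasting response itself differed between genotypes, by 0.89 ± 0.22 (SE, adjusted p = 0.0170) with 0.93 in batch 1 and 0.81 in batch 2. That call was lost when any 1 of these arrays was left out: p110α hep+/+ CTRL FED replicate 1 or 3 (adjusted p from 0.0517 to 0.0538, log2 fold change from 0.75 to 0.77). HFD lowered *Pltp* in fed p110α hep+/+ mice, at -0.44 ± 0.15 (SE, adjusted p = 0.0333), with -0.21 in batch 1 and -0.73 in batch 2, a call that was lost when any 1 of these arrays was left out: p110α hep+/+ CTRL FED replicate 1, 3 or 5 or p110α hep+/+ HFD FED replicate 3, 4 or 5 (adjusted p from 0.0521 to 0.175, log2 fold change from -0.43 to -0.31).

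*Pltp* and *Abca1* are also expressed by macrophages, so macrophage markers are given beside them. Of 4 markers of lipid-associated macrophages (*Trem2*, *Gpnmb*, *Cd9*, *Spp1*), 4 were called lower in fed p110α hep-/- than in fed p110α hep+/+ mice on HFD, 3 in fasted mice on HFD, 2 in fed mice on CTRL and 1 in fasted mice on CTRL. Their summed signal (log2) in fed mice on CTRL was 11.32 to 12.28 in p110α hep+/+ mice and 10.70 to 11.15 in p110α hep-/- mice. In fasted mice on CTRL it was 11.04 to 11.67 against 10.65 to 10.92. On HFD it was 11.67 to 12.90 against 10.53 to 11.29 fed and 11.75 to 12.55 against 10.39 to 10.85 fasted. The sum is led by the brighter markers, and its difference on CTRL came mostly from *Spp1*. In the same order of genotypes, fed means on CTRL were 10.95 against 9.21 for *Spp1*, 10.29 against 10.14 for *Cd9* and 8.14 against 7.85 for *Trem2*. Fasted means on CTRL were 10.42 against 8.54, 9.84 against 10.04 and 8.26 against 8.13. *Gpnmb* was well above background on at most 1 of 6 arrays in each p110α hep-/- group and on 6 of 6 in each p110α hep+/+ group on HFD. Of 9 Kupffer cell and macrophage markers, 0 were called by limma in fed mice on CTRL and 0 in fed mice on HFD, with 0 and 3 at an unadjusted p under 0.05. In fasted mice, 1 was called higher on CTRL, with 4 at an unadjusted p under 0.05, and on HFD 1 was called higher and 1 lower, with 2 at an unadjusted p under 0.05. Their summed signal in fed mice was 14.68 to 16.14 in p110α hep+/+ and 14.73 to 15.53 in p110α hep-/- mice on CTRL, and 14.61 to 15.28 and 14.82 to 15.76 on HFD. In fasted mice it was 14.38 to 14.92 and 14.83 to 15.16 on CTRL, and 14.49 to 16.14 and 14.61 to 15.67 on HFD. Among markers of other cells, 3 of 4 of cholangiocytes were called lower in p110α hep-/- mice in every setting but fed mice on CTRL, where 2 of 4 were. Some of these lay near background in p110α hep-/- mice. There *Epcam* was well above background on at most 1 of 6 arrays per group and *Krt7* on at most 4 of 6. *Krt19* was so on 3 of 6 arrays of fasted p110α hep-/- mice on CTRL. In fasted mice on HFD, 4 of 5 endothelial markers were called higher and 2 of 3 neutrophil markers lower. The lymphocyte list as tested held *Cd3e* and *Ptprc*, of which *Ptprc* is shared with other leukocytes. Both were called higher in fed p110α hep-/- than in fed p110α hep+/+ mice on HFD, and 1 of 2 in fasted mice on HFD. Both were called lower under HFD in fed p110α hep+/+ mice, and higher on fasting in p110α hep+/+ mice on HFD. *Abcg5*, *Abcg8* and *Abca1* moved the same way in these comparisons. The transporter genes also rose under HFD in fasted p110α hep-/- mice and on fasting of p110α hep-/- mice on HFD. There, 0 of the 2 markers of the lymphocyte list were called by limma, with 0 at an unadjusted p under 0.05. Of 6 stellate cell and fibroblast markers, 1 was called higher and 2 lower between genotypes on HFD, both fed and fasted. Under HFD in fed p110α hep+/+ mice, where *Abca1* and *Pltp* fell, 3 of 4 lipid-associated macrophage markers were called higher, with a median log2 fold change of 0.71. In the same comparison 3 of 6 stellate cell and fibroblast markers and 2 of 3 neutrophil markers were called higher, with medians of 0.25 and 0.84. On fasting in p110α hep+/+ mice on CTRL, where *Pltp* fell, 2 of 4 lipid-associated macrophage markers were called lower, with a median of -0.43. So was 1 of 9 Kupffer cell and macrophage markers, with a median of -0.30. On fasting of p110α hep-/- mice on HFD, 3 of 6 stellate cell and fibroblast and 1 of 4 lipid-associated macrophage markers were called lower. There 1 of 5 endothelial and 1 of 3 neutrophil markers were called higher. On fasting of p110α hep+/+ mice on HFD, 2 of 5 endothelial and 1 of 9 Kupffer cell and macrophage markers were called lower. So were 1 of 6 stellate cell and fibroblast and 1 of 4 cholangiocyte markers. The part of these cells in the differences of the 8 genes was not tested.

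*Lpcat3*, the phospholipid-remodelling acyltransferase, was called between genotypes in 1 of 4 settings, fed mice on HFD. There, p110α hep+/+ mice read 14.19 to 14.54 with a median of 14.32 and p110α hep-/- mice 13.89 to 14.09 with a median of 14.01, without overlap. These groups were the highest and the lowest of the 8, and the log2 fold change was -0.34 ± 0.074 (SE, adjusted p = 0.000370), or 1.27-fold lower in p110α hep-/- mice, with -0.28 in batch 1 and -0.42 in batch 2. The other group means lay between 14.10 and 14.24, and the other 3 genotype differences between 0.00075 and 0.13. The genotype difference in fed mice differed between diets, by -0.42 ± 0.10 (SE, adjusted p = 0.0197), with -0.46 in batch 1 and -0.43 in batch 2. HFD lowered *Lpcat3* in fed p110α hep-/- mice, at -0.25 ± 0.077 (SE, adjusted p = 0.0270), with -0.24 in batch 1 and -0.26 in batch 2, a call lost when any 1 of these arrays was left out: p110α hep-/- CTRL FED replicate 1, 3 or 4 or p110α hep-/- HFD FED replicate 2 or 4 (adjusted p from 0.0588 to 0.0943, log2 fold change from -0.24 to -0.22). Fasting raised it in p110α hep-/- mice on HFD, at 0.24 ± 0.080 (SE, adjusted p = 0.0204), with 0.17 in batch 1 and 0.31 in batch 2, which was lost when any 1 of these arrays was left out: p110α hep-/- HFD FASTED replicate 3 or p110α hep-/- HFD FED replicate 2 (adjusted p from 0.0663 to 0.0671, log2 fold change from 0.21 to 0.22).

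The 2 *Lpcat3* probes lie on chromosome 6 (mm9, plus strand), the brighter at chr6:124654029-124654088 and the other at chr6:124653374-124653542, and correlated at r = 0.74 over the 48 mice. The other probe gave smaller differences. It read -0.21 (adjusted p = 0.0471) for genotype in fed mice on HFD and -0.22 (adjusted p = 0.308) for the interaction with diet, so the interaction rests on 1 probe. With the mean over both probes, the calls for fasting in p110α hep-/- mice on HFD (0.17, adjusted p = 0.0857) and for diet in fed p110α hep-/- mice (-0.20, adjusted p = 0.0593) were lost as well. Of 6 other lysophospholipid acyltransferases tested, *Mboat1* was called lower in p110α hep-/- mice in all 4 settings, but its probe lay near background in 3 of the 4 p110α hep-/- groups. In fed mice on CTRL, with all arrays of both genotypes well above background, the difference was -0.84 (adjusted p = 9.22e-09). Well above background were 2 of 6 p110α hep-/- arrays fed on HFD, 3 of 6 fasted on HFD and 0 of 6 fasted on CTRL, where the signal was at least 1.28-fold lower than in p110α hep+/+ mice (adjusted p = 0.00321). That bound sets the mean of the p110α hep+/+ arrays, of which 5 of 6 were well above background, against the higher of the p110α hep-/- signal and the lowest signal well above background on each array. *Mboat7*, an acyltransferase that prefers phosphatidylinositol, was higher in fed p110α hep-/- mice on CTRL, at 0.21 (adjusted p = 0.0148). *Lpcat2* was lower in fasted p110α hep-/- mice on HFD, at -0.36 (adjusted p = 0.00870).

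*Mylip*, the ubiquitin ligase gene, was raised by fasting in 3 of 4 settings and was higher in p110α hep-/- mice in 3 of 4. Its probe lies at chr13:45506979-45507038 (mm9, plus strand). p110α hep+/+ mice read 9.03 to 9.55 with a median of 9.11 on CTRL fed and 9.22 to 9.88 with a median of 9.51 on CTRL fasted. On HFD they read 9.01 to 9.50 with a median of 9.32 fed and 9.27 to 9.93 with a median of 9.52 fasted. These groups overlapped on both diets. p110α hep-/- mice read 9.26 to 9.73 with a median of 9.45 on CTRL fed and 9.56 to 10.07 with a median of 9.99 on CTRL fasted. On HFD they read 9.20 to 9.74 with a median of 9.30 fed and 9.88 to 10.23 with a median of 10.01 fasted, without overlap.

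The fasting rise of *Mylip* was 0.68 ± 0.11 (SE, adjusted p = 1.34e-05) in p110α hep-/- mice on HFD, with 0.57 in batch 1 and 0.80 in batch 2, and 0.52 ± 0.10 (SE, adjusted p = 9.82e-05) in p110α hep-/- mice on CTRL, with 0.63 in batch 1 and 0.49 in batch 2. In p110α hep+/+ mice it was 0.41 ± 0.10 (SE, adjusted p = 0.00171) on CTRL, with 0.13 in batch 1 and 0.73 in batch 2, and the change on HFD of 0.19 ± 0.099 (SE, adjusted p = 0.161) was not called. Between genotypes, *Mylip* differed by 0.50 ± 0.11 (SE, adjusted p = 0.000347) in fasted mice on HFD, with 0.48 in batch 1 and 0.54 in batch 2, and by 0.41 ± 0.10 (SE, adjusted p = 0.00200) in fasted mice on CTRL, with 0.61 in batch 1 and 0.20 in batch 2. For fed mice the difference was 0.30 ± 0.11 (SE, adjusted p = 0.0353) on CTRL, with 0.11 in batch 1 and 0.43 in batch 2, and 0.0041 ± 0.11 (SE, adjusted p = 0.981) on HFD, the latter not called. Whether the genotype difference itself depends on feeding on HFD gave an interaction of 0.49 ± 0.15 (SE, adjusted p = 0.0588), not called. The call in fed mice on CTRL was lost when any 1 of these arrays was left out: p110α hep-/- CTRL FED replicate 5 or 6 or p110α hep+/+ CTRL FED replicate 1, 3, 5 or 6 (adjusted p from 0.0568 to 0.107, log2 fold change from 0.25 to 0.30). Diet gave 0 calls of 4 in the limma fit, 1 at an unadjusted p under 0.05, with log2 fold changes from -0.096 to 0.20.

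**Figure D4:**
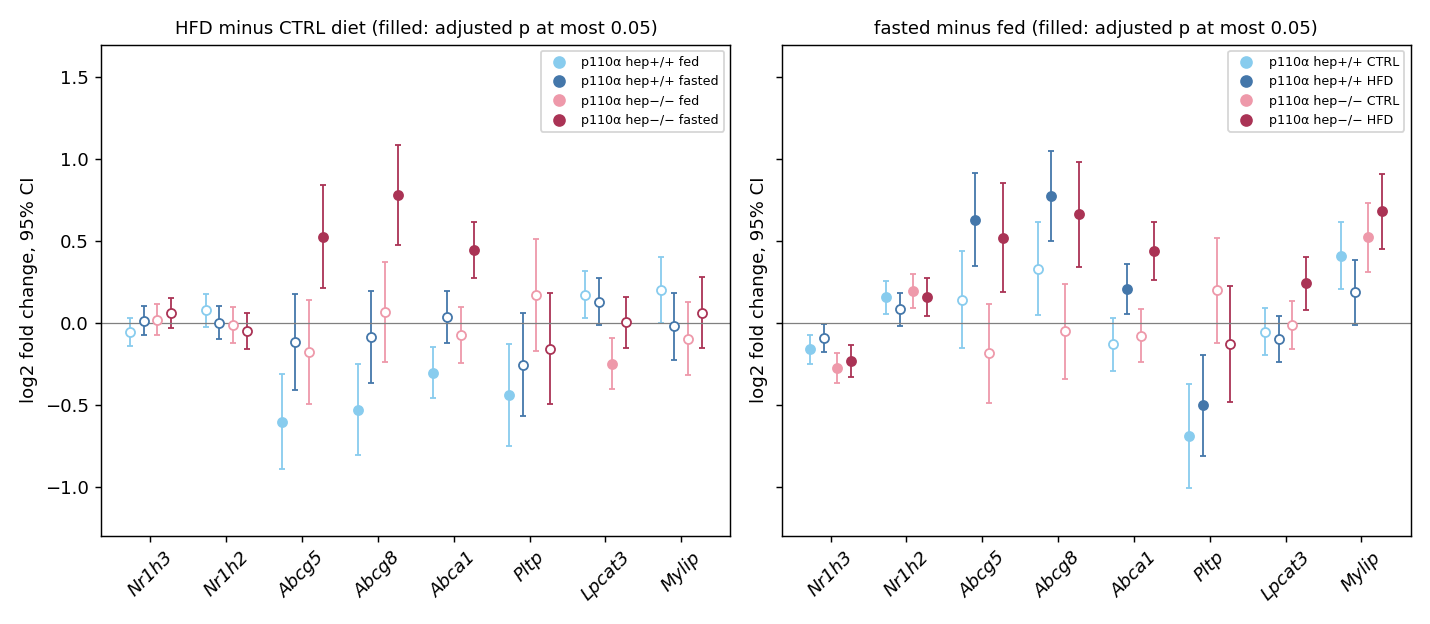
Log2 fold changes of the 8 genes for HFD against CTRL (left) and fasted against fed (right), with 95% confidence intervals from the limma fit; colours give the genotype and the setting, and filled points have an adjusted p of at most 0.05. HFD lowers Abcg5 in fed p110α hep+/+ mice (-0.60) and raises Abcg8 in fasted p110α hep-/- mice (0.78), while fasting raises Mylip in p110α hep-/- mice on HFD (0.68).

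Ordered by group mean, few neighbouring groups stood further apart than the larger of their SDs, so most of the order within a gene lies within the spread between mice. For *Nr1h3* the 4 fed groups ranked above the 4 fasted groups, and the steps that exceeded the spread were that from fed p110α hep+/+ mice on CTRL (13.53) to fed p110α hep+/+ mice on HFD (13.46) and that to the lowest group, fasted p110α hep-/- mice on CTRL (13.25). For *Nr1h2* the 4 p110α hep-/- groups ranked above the 4 p110α hep+/+ groups, with such a step between fasted p110α hep-/- mice on HFD (12.16) and fed p110α hep-/- mice on HFD (12.02). Fasted p110α hep-/- mice on HFD ranked first and fed p110α hep+/+ mice on HFD last for *Abcg5*, *Abcg8* and *Abca1* alike. For *Abcg5* (13.44) the step to the last group exceeded the spread, for *Abcg8* the steps to the last 2 groups (12.40 and 11.85), and for *Abca1* the step from the first (12.27) to the second group (11.93) and the step to the last (11.61). *Mylip* was separated in the same way between the fasted p110α hep-/- groups (10.03 and 9.91) and all others, of which the highest stood at 9.55. No step exceeded the spread for *Pltp*, between 10.61 in fed p110α hep+/+ and 9.53 in fed p110α hep-/- mice on CTRL, or for *Lpcat3*.

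The number of the 8 genes called was set beside the share of all tested genes called in the same comparison. For genotype, 4 of 8 were called in fed mice on CTRL against 21.7% of all genes, 2 of 8 in fasted mice on CTRL against 24.9%, 6 of 8 in fed mice on HFD against 33.0% and 5 of 8 in fasted mice on HFD against 36.9%. The share of the 8 was near the background in fasted mice on CTRL and numerically above it in the other settings. The 8 genes are few, were chosen with earlier results of these data known, and include *Abcg5* and *Abcg8*, which moved together. Whether their share exceeds the background was therefore not tested, and the counts are a description. The median log2 fold change of the 8 was 0.34 in fasted mice on HFD, against 0.033 over all genes. For diet, 4 of 8 were called in fed p110α hep+/+ mice against 24.0%, 0 of 8 in fasted p110α hep+/+ mice against 16.0% (limma, 0 of 8 at an unadjusted p under 0.05), 1 of 8 in fed p110α hep-/- mice against 12.3% and 3 of 8 in fasted p110α hep-/- mice against 10.8%. In fed p110α hep-/- mice the share was near the background. In fed p110α hep+/+ mice all 4 called genes fell (*Abcg5*, *Abcg8*, *Abca1* and *Pltp*), and in fasted p110α hep-/- mice all 3 rose (*Abcg5*, *Abcg8* and *Abca1*).

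For fasting, 4 of 8 were called in p110α hep+/+ mice on CTRL against 32.6% of all genes, 4 of 8 in p110α hep+/+ mice on HFD against 28.6%, 3 of 8 in p110α hep-/- mice on CTRL against 35.5% and 7 of 8 in p110α hep-/- mice on HFD against 28.6%. The share of the 8 was near the background in p110α hep-/- mice on CTRL. In p110α hep+/+ mice it was higher by a small number of genes, and in p110α hep-/- mice on HFD it was highest. These shares were not tested either. The 7 genes left out *Pltp*, and their direction was up for all but *Nr1h3*. The median of the 8 there was 0.34, against 0.00012 over all genes. Among interactions of genotype with diet, 1 of 8 was called in fed mice against 3.03% and 2 of 8 in fasted mice against 5.09%. Among those of genotype with fasting, 1 of 8 was called on CTRL against 3.97% and 0 of 8 on HFD against 3.49%, where 3 of 8 had an unadjusted p under 0.05 in limma. Among those of diet with fasting, 0 of 8 were called in p110α hep+/+ mice against 2.36%, with 3 of 8 at an unadjusted p under 0.05 in limma, and 3 of 8 in p110α hep-/- mice against 8.0%. Comparisons that share a group are not independent of each other, as in genotype and diet comparisons that both use fed p110α hep+/+ mice on HFD.

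Other known LXR targets moved in both directions between genotypes. All 23 of a list of further targets were tested, and in fed p110α hep-/- mice on HFD 2 rose above and 9 fell below the p110α hep+/+ level, with a median log2 fold change of -0.083 against 0.031 over all genes. The 11 called of 23 stand against 33.0% of all genes called there. Those lower were led by *Pnpla3*, which acts on lipid droplets, at -3.46 (adjusted p = 2.18e-11) with 4 of 6 p110α hep-/- arrays well above background, the desaturase *Scd1* at -2.68 (adjusted p = 1.67e-11) and the synthase *Fasn* at -2.63 (adjusted p = 6.73e-14). *Srebf1*, the transcription factor of fatty acid synthesis, named after its values had been seen, read -0.43 (adjusted p = 0.116) and was called lower in fed mice on CTRL, at -0.70 (adjusted p = 0.0127). Those higher were *Lpl*, the lipase of circulating triglyceride, at 1.39 (adjusted p = 1.87e-07) and *Npc1*, which exports cholesterol from lysosomes, at 0.37 (adjusted p = 9.81e-05). The same fed p110α hep-/- mice on HFD had *Abcg8* at 1.16 and *Abcg5* at 0.81. Among fasted p110α hep-/- mice on HFD, 6 rose above and 4 fell below the p110α hep+/+ level, with *Lpl* at 1.84, *Rnf145* at 0.51 and *Mlxipl*, which encodes ChREBP, at 0.38 against *Scd1* at -3.03, *Fasn* at -0.79 and *Apoc2* at -0.51; 36.9% of all genes were called in that setting. On CTRL, 4 rose above and 7 fell below the p110α hep+/+ level in fed p110α hep-/- mice. In fasted ones on CTRL, 2 rose and 4 fell. Against the background of 21.7% and 24.9%, the 6 called of 23 in fasted mice are near the share of all genes.

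**Figure D5:**
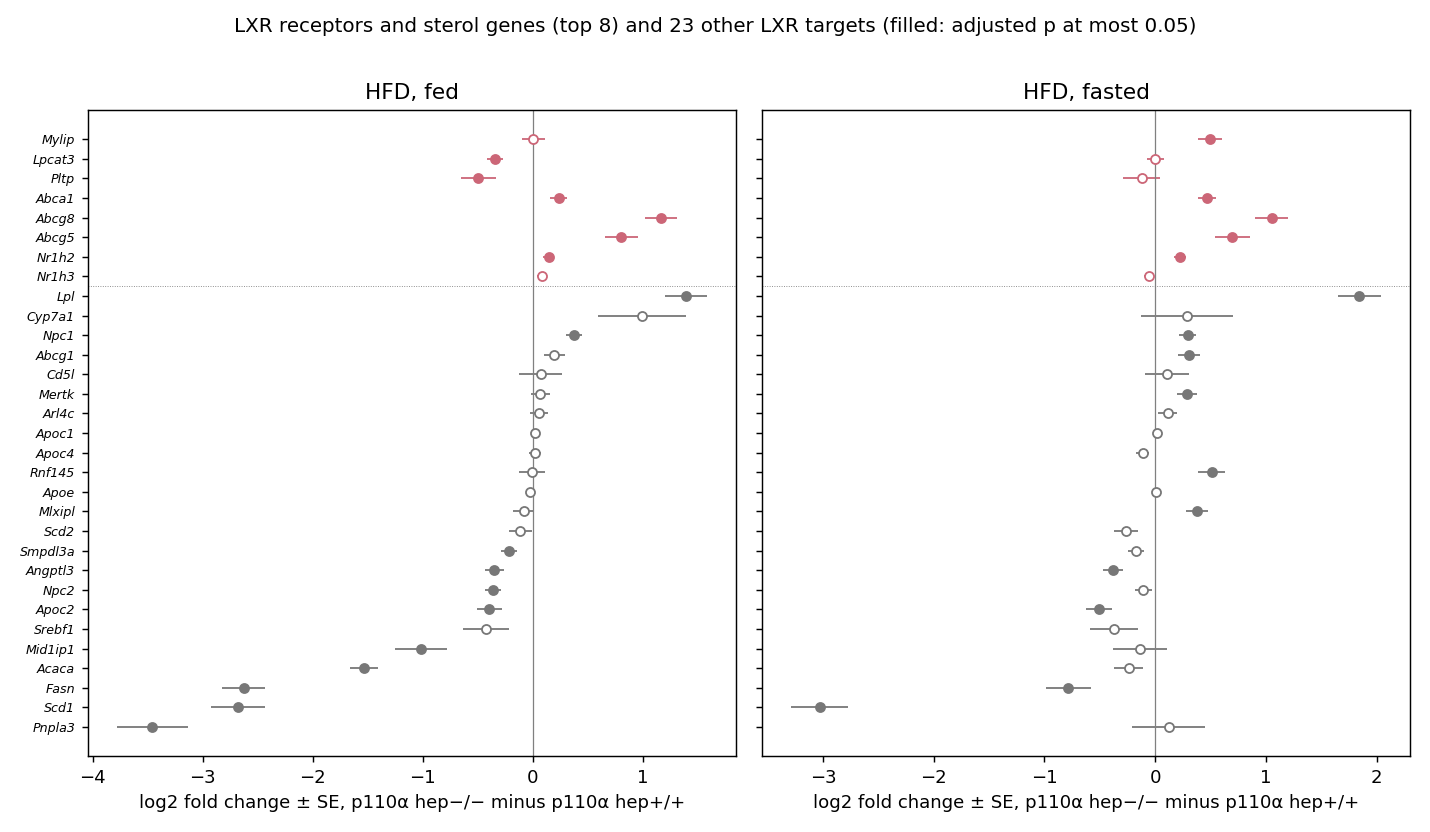
Genotype log2 fold change (p110α hep-/- minus p110α hep+/+) of the 8 genes (red, above the dotted line) and of 23 further LXR targets (grey), in fed mice on HFD (left) and fasted mice on HFD (right); points with bars are the fitted value ± SE, and filled points have an adjusted p of at most 0.05. In fed mice, Pnpla3 (-3.46), Scd1 (-2.68) and Fasn (-2.63) lie at the low end, Pnpla3 with 4 of 6 p110α hep-/- arrays well above background, and Lpl (1.39) and Abcg8 (1.16) lie at the high end.

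Diet and fasting moved these further targets as follows. Under HFD, 3 rose and 4 fell in fed p110α hep+/+ mice, with *Lpl* at 0.64 and *Pnpla3* at -1.01, and 5 rose and 1 fell in fasted p110α hep-/- mice, with 24.0% and 10.8% of all genes called. In fed p110α hep-/- mice 3 rose and 9 fell under HFD, 12 of 23 against 12.3% of all genes. The median of the 23 was -0.17. Among those that fell were *Scd1* at -2.44, *Fasn* at -1.65 and *Pnpla3* at -1.70, and *Lpl* rose, at 1.34. For *Pnpla3*, 4 of 6 arrays of these mice on HFD were well above background. Of the interactions of diet with fasting in p110α hep-/- mice, 8 were higher and 1 lower, 9 of 23 against 8.0%. The targets that rose in fasted p110α hep-/- mice included *Cyp7a1*, the rate-limiting enzyme of bile acid synthesis, at 1.68 (adjusted p = 0.00544), and *Lpl* at 1.29, the setting in which *Abcg5*, *Abcg8* and *Abca1* rose as well. Fasting on CTRL raised 2 and lowered 10 of them in p110α hep+/+ mice, and the 11 called in p110α hep-/- mice were all lowered, with 32.6% and 35.5% of all genes called. On fasting, *Fasn* changed on the log2 scale by -4.47 on CTRL and -4.14 on HFD in p110α hep+/+ mice, and by -3.73 on CTRL and -2.30 on HFD in p110α hep-/- mice. In fasted against fed p110α hep-/- mice on HFD, 1 of these targets rose (*Mertk*, 0.32) and 6 fell, so that 7 of 23 were called, near the 28.6% of all genes.

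Partners, cofactors and ligand enzymes of LXR were read against the same background of 33.0% of genes called in fed and 36.9% in fasted mice on HFD. Of 13 genes of RXR partners and cofactors, 6 rose above and 1 fell below the p110α hep+/+ level in fed p110α hep-/- mice on HFD. They included *Ttc39b*, a scaffold that promotes LXR turnover, at 0.50 (adjusted p = 0.000170), with the partner *Rxrg* at -0.61 (adjusted p = 4.23e-05). When fasted on HFD, 5 rose above and 3 fell below the p110α hep+/+ level, with the coactivator *Ncoa2* at 0.39 and *Rxrg* at -0.70. Of 7 enzymes of oxysterol metabolism tested, 1 rose above and 2 fell below the p110α hep+/+ level in fed p110α hep-/- mice on HFD, 3 of 7 and near the background. *Cyp7b1*, which hydroxylates oxysterols for bile acid synthesis, read 0.73 (adjusted p = 0.0275), and *Ch25h*, which makes 25-hydroxycholesterol, -0.91 (adjusted p = 1.48e-06). For fasted p110α hep-/- mice on HFD, 2 rose above and 3 fell below the p110α hep+/+ level, including *Cyp27a1*, the sterol 27-hydroxylase, at 0.53 (adjusted p = 0.000520). *Ch25h* was well above background on 29 of 48 arrays, 4 of 6 in fed p110α hep-/- mice on HFD.

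Among 12 tested genes of sterol transport and lipoprotein receptors, 4 rose above and 2 fell below the p110α hep+/+ level in fed p110α hep-/- mice on HFD, 6 of 12 against 33.0% of all genes. The median log2 fold change of the 12 was -0.14 there, against 0.031 over all genes. In fasted mice on HFD 2 rose and 3 fell, near the share of all genes called, 36.9%. The values that follow are from fed mice. *Scarb1*, the HDL receptor, read 0.96 (adjusted p = 5.03e-12) and *Lcat*, which esterifies the cholesterol of HDL, 0.50 (adjusted p = 3.94e-07). *Abcb4*, which delivers the phospholipid that carries cholesterol in bile, was lower in fed p110α hep-/- mice at -0.36 on CTRL and -0.28 on HFD, where *Abcg8* was higher.

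The genes with the pattern most like each member over the 48 mice were listed as a description, out of 20458 other tested genes with a value on every array. For *Mylip* they were *Hecw2* (r = 0.88), *Abi1* (r = 0.86) and *Ndrg1* (r = 0.85), and over the 8 group means *Mylip* and *Ndrg1* reached r = 0.99. For *Nr1h2* they were *Dmwd* (r = 0.84), *Phactr4* (r = 0.84) and *Sorbs3* (r = 0.83), and for *Nr1h3* *Mical2* (r = 0.78), *Sec61g* (r = 0.77) and *Pygl* (r = 0.77). *Pltp* was most like *Chrna4* (r = 0.77), *Acss2* (r = 0.70) and *Mboat1* (r = 0.70), of which *Acss2* makes acetyl-CoA for lipid synthesis. After *Abcg5*, *Abcg8* was most like *Zfp771* (r = 0.86) and *Dctpp1* (r = 0.83), and *Abca1* was most like *Abcg5* (r = 0.73), with *Ddx21* (r = 0.70) also among its nearest. *Lpcat3* had the lowest coefficients, *Rac1* (r = 0.64), *Fdft1* (r = 0.58) and *Anxa7* (r = 0.57). Between members, *Pltp* correlated with *Abcg8* at r = -0.43 over the 48 mice and 0.16 within groups, and the receptor genes with each other at -0.38 and 0.24.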

How the data were processed

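RNA of 48 livers had been labelled and hybridised on one-colour Agilent arrays, and the authors deposited each scan as extracted by Feature Extraction 10.10.1.1, named in the submitters' processing notes. The intensity values used here are the deposited median signal of each spot, without background subtraction. The authors also deposited a matrix of log2 values, already normalised, which was used as an alternative only. From the scans, control spots and outlier spots were left out, spots of a probe were averaged, and log2 was taken. A probe was kept when well above background on at least 5 of 6 arrays of 1 or more groups. The difference between the 2 washing batches was removed with the group means protected, and arrays were quantile normalised.

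Group means were fitted in limma 3.58.1 (R 4.3.3, statmod 1.5.0) with array weights, over all 8 groups. Each contrast was tested by the moderated statistic, with Benjamini-Hochberg adjustment over all 30793 probes kept, and a gene is given by its brightest probe. There were 12 simple contrasts and 6 interactions. The fit was tested on simulated data. Each array is 1 mouse, and 6 mice per group keep the precision low. For each probe the 8 groups share 1 estimate of the spread between mice. An SE or p-value therefore does not reflect the spread of only the groups compared. Spreads did differ: for *Abcg8* in fed mice on HFD, the SD was 0.54 among p110α hep-/- mice against 0.14 among their p110α hep+/+ counterparts. Groups are those of the labels.

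All 8 genes are named with every probe. From other lists, at most 3 called rises and 3 called falls with the largest change were eligible per contrast, with *Pik3ca* and the 3 genes most like each of the 8; exceptions are marked, and a few eligible genes are not reported here. The 8 genes and the lists were chosen with earlier results of these data known. Promoter sequences are from RefSeq (GRCm38.p6) and all 8 genes matched by symbol. Probe coordinates are those of the scans (mm9). No genome of that build was used, so exons and UTRs are not given. Alternatives covered the signal, background correction, filter, normalisation, batch, weights, probe choice, sample set, threshold and the leaving out of each array. Figures were drawn with Python 3.11.15 and matplotlib 3.10.9.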

Additional observations from a re-analysis of the deposited data

Results flagged for a closer look

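In groups of 6 mice, 5 of the 64 sets of values of the 8 genes held a mouse whose gap to its nearest neighbour exceeded Dixon's 95% critical value, and chance gives this in a share of about 0.05 of such groups. For *Abca1*, p110α hep+/+ replicate 3 was lowest among fed mice on HFD at 11.27, and replicate 3 of the fasted mice on HFD, another mouse, was highest at 12.12. *Lpcat3* read 14.63 in fasted p110α hep+/+ mice on HFD, replicate 1. *Mylip* read 9.55 in fed p110α hep+/+ mice on CTRL, replicate 2, and 9.74 in fed p110α hep-/- mice on HFD, replicate 4.

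A response differed between groups, by the test of the difference itself, in 7 cases. The genotype difference in fasted mice was larger on HFD than on CTRL for *Abcg8* (0.87, adjusted p = 0.00974) and *Abca1* (0.41, adjusted p = 0.0300). That of *Lpcat3* in fed mice was lower on HFD (-0.42, adjusted p = 0.0197). The fasting response of p110α hep-/- mice was larger on HFD for *Abcg5* (0.71, adjusted p = 0.0423), *Abcg8* (0.71, adjusted p = 0.0313) and *Abca1* (0.52, adjusted p = 0.00379). On CTRL, the fasting response of *Pltp* was 0.89 higher in p110α hep-/- than in p110α hep+/+ mice (adjusted p = 0.0170).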

How the results depend on the processing

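No called value of the 8 genes changed sign under any alternative. Of the 50 calls, 34 were made when each array was left out in turn, and 31 in all of 61 settings, which do not include the stricter thresholds and the single washing batches. Of interactions, 7 were called in the fit reported, 2 without a filter on dim probes, 4 without the batch correction, 4 without array weights, 4 when only the groups compared were fitted, 4 with a fold above 1.5 required and 2 at an adjusted p of at most 0.01. The 8 diet calls became 5 when only the groups compared were fitted, 2 with a fold above 1.5 and 5 at the stricter threshold. Requiring that fold left 5 of the 17 genotype calls and 5 of the 18 fasting calls. Batch 1 alone, with 3 mice per group, gave 8 genotype, 0 diet, 7 fasting and 1 interaction calls, and batch 2 alone 12 genotype, 4 diet, 10 fasting and 0 interaction calls. With 1 array left out, the calls ranged from 15 to 18 for genotype, 7 to 9 for diet, 16 to 18 for fasting and 4 to 8 for interactions, with 4 reached without fasted p110α hep-/- HFD replicate 1 or 3. The *Lpcat3* interaction of genotype with diet was lost without a filter (adjusted p = 0.0689) and with the mean over probes (adjusted p = 0.0577). Median scaling lost the calls of *Nr1h3* for fasting in p110α hep+/+ mice on CTRL, of *Nr1h2* and *Abca1* for genotype in fed mice on HFD, of *Abcg5* for diet in fasted p110α hep-/- mice and of *Abca1* for genotype by diet in fasted mice. The 75th percentile lost the first of these, the *Abcg5* diet call, and the *Abcg5* and *Abcg8* interactions of diet with fasting. The deposited matrix gave the same numbers of calls, 17, 8, 18 and 7.

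With the replicate block, 17 genotype, 8 diet, 17 fasting and 8 interaction calls were made. Mice of the same number are different animals, and their deviations from the group means correlated at r = 0.019 on average over 168 pairs, against -0.0036 for 840 pairs of other numbers, so the numbers do not pair the mice. Under the block, the *Nr1h2* genotype call in fed mice on HFD (adjusted p = 0.0905) and the *Abca1* fasting call in p110α hep+/+ mice on HFD (adjusted p = 0.0761) were lost.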
